A study of Sus scrofa with 48 samples.

Results

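The nuclear receptors *PPARA*, *PPARD*, *PPARG*, *RXRA*, *RXRB* and *RARA*, the co-repressor *NCOR1* and the co-activators *NCOA1* and *MED1* were followed in dorsal subcutaneous adipose tissue (SCAT) of 48 growing pigs. Their members were the non-control array probes whose gene name, or the gene of whose systematic name, is 1 of these 9 symbols and whose signal was flagged well above background for 9 or more pigs of the 12 in a group. This rule gave 26 probes of the 60305 distinct probes on the array, and all 26 were among the 44356 kept with the same limit. There were 4 probes each for *PPARG* and *NCOA1*, 3 each for *PPARA*, *PPARD*, *RXRB* and *NCOR1*, and 2 each for *RXRA*, *RARA* and *MED1*.

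The pigs were pure Large White barrows aged 132 days, all fed ad libitum, in a 2 x 2 design with 12 animals and 12 arrays per group. They came from 2 lines bred in opposite directions for residual feed intake (RFI), what a pig eats beyond the amount calculated for its growth and upkeep. The RFIneg line eats less than calculated (low RFI) and the RFIpl line more (high RFI). In each line, 12 pigs received a high-fat, high-fiber diet (HF) and the other 12 a diet low in fat and fiber and rich in starch (LF), so that fat, fiber and starch changed together and cannot be told apart. Each pig gave 1 single-colour array. The design asks whether the diet changed the expression of these regulators, whether the line did, and whether the diet acted alike in both lines.

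PPARs are nuclear receptors that are switched on by fatty acids and their derivatives. Each binds DNA as a pair with a retinoid X receptor (RXR), at sites near genes of lipid storage and lipid oxidation. Without ligand the pair can hold a co-repressor complex built around NCOR1, and with ligand it recruits co-activators such as NCOA1, a histone acetyltransferase, and MED1, the Mediator subunit that links receptors to RNA polymerase. *PPARG* is the master regulator of fat cell formation, *PPARA* is best known for driving fatty acid oxidation in liver, and *PPARD* is expressed in most tissues. *RARA* encodes a retinoic acid receptor, which also pairs with RXR.

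Values are background-subtracted signals on the log2 scale, centred so that on every array the median of the kept probes is 0. Levels are compared only within a probe. A difference was called with the cut-offs of the study, an unadjusted p below 0.01, a change of more than 1.1 times and, over all 44356 probes, a Benjamini-Hochberg p below 0.08, in a limma fit of diet, line and their interaction. Between 62.18% and 81.87% of the probes were well above background per array. All 10 adipocyte markers, including *ADIPOQ*, *PLIN1* and *FABP4*, were measured, and their mean level lay between 7.12 and 7.88 on every array. In bulk tissue, fewer cells of a type and less RNA per cell cannot be told apart.

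The probes of 1 gene did not all read the same stretch of it, and for *PPARA* they moved in opposite directions, so their sequences are shown first. A_72_P441798 was designed on the pig *PPARA* transcript, O221 on a protein record of *PPARA*, and A_72_P775972 on a pig liver cDNA clone that the array files name *PPARA*. Of the last probe, the first 30 of 60 bases are given. Whether the clone belongs to the pig *PPARA* gene was not tested here, so that values of A_72_P775972 are those of a probe named *PPARA*.
A_72_P441798: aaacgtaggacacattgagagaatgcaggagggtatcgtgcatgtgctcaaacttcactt
O221: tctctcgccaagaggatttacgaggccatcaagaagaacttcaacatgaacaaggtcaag
A_72_P775972: ttttttattttaaccttttaaaaaagcccc

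Of the *PPARD* probes, A_72_P443751 and A_72_P165296 were designed on the same pig transcript, at listed starts of 1091 and 1293, and O9480 on a human *PPARD* transcript record. They are shown because they gave different responses to the diet, O9480 by its first 30 bases. The match of O9480, as of the other probes from human records, to the pig gene was not tested here.
A_72_P443751: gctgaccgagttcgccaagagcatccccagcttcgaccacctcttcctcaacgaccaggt
A_72_P165296: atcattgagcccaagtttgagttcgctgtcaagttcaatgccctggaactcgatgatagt
O9480: gctaggagcagcttcctgtttttaatataa

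*RXRA* fell under the HF diet at both of its probes, *PPARD* at 2 of 3 and *RXRB* at 1 of 3, and of the probes named *PPARA* 1 fell and another, from the liver clone, rose. No probe of *PPARG*, *RARA* or the coregulators passed the test. Of the 26 probes, 7 (26.9%) were called by diet, 6 lower and 1 higher under the HF diet, against 13.1% of all 44356 probes (5.61% higher and 7.44% lower). These 7 probes belonged to 4 genes, *PPARA*, *PPARD*, *RXRA* and *RXRB*. The other 19 probes differed between diets by -0.10 to 0.21 on the log2 scale. Probes named for 1 gene are not independent measurements of the diet. The split of all calls by direction depended on the centring, since 43.0% of the probes called by diet were higher under the HF diet with the array median, 67.2% with the 75th percentile and 50.5% with quantile normalization. Of the 7 member probes, 4 were called with the 75th percentile, namely *PPARA* A_72_P775972, *PPARD* O9480 and both *RXRA* probes. That is 15.4% of the member probes against 12.9% of all probes under the same scaling, a share near the background. In no probe were the HF and LF arrays fully separate.

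**Figure D1:**
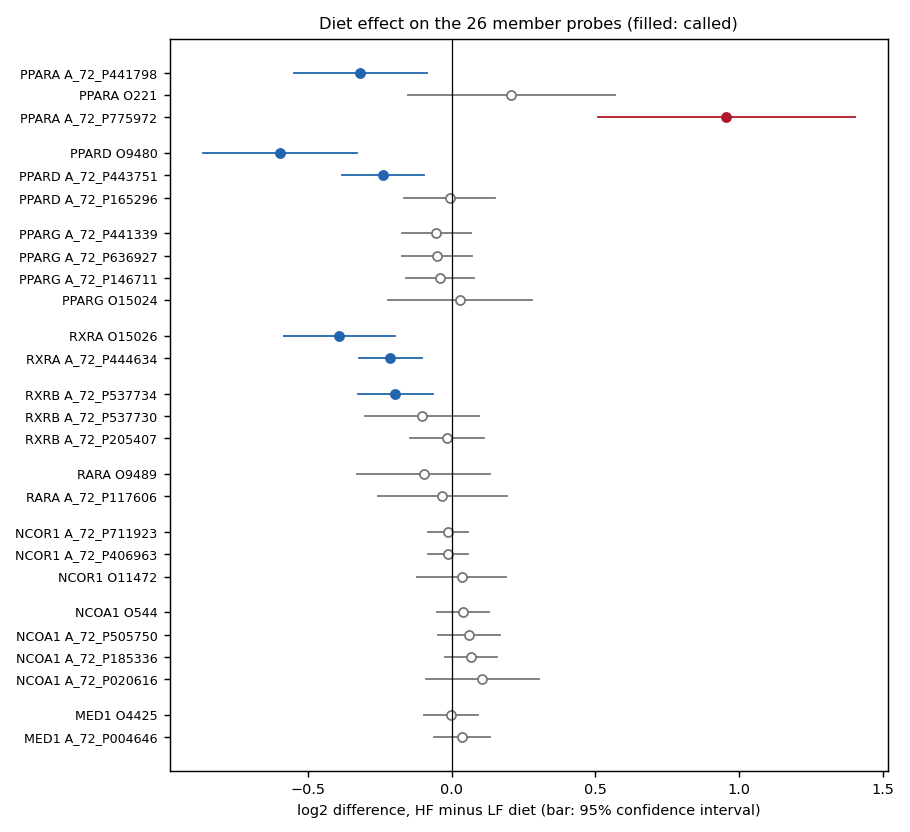
Diet effect on each of the 26 member probes, grouped by gene. The horizontal axis is the log2 difference between HF and LF arrays (24 of each), bars are 95% confidence intervals, and filled points passed the cut-offs (blue lower, red higher under HF). Blue points lie at *PPARA* A_72_P441798 and at probes of *PPARD*, *RXRA* and *RXRB*, and the only red point is *PPARA* A_72_P775972.

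The name *PPARA* was carried by 3 probes. At A_72_P775972, levels ran from -1.36 to 1.09 (median 0.34) in HF low RFI pigs, from -1.25 to 1.20 (median -0.32) in HF high RFI pigs, from -2.04 to 0.61 (median -1.26) in LF low RFI pigs and from -1.61 to 0.39 (median -0.92) in LF high RFI pigs. Both HF groups stood higher than both LF groups, with wide overlap, and 22 of 24 HF arrays exceeded the LF mean. The difference was 0.96 (SE 0.22, 95% confidence interval 0.51 to 1.40, adjusted p = 0.00332, limma), a fold change of 1.94.

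A_72_P441798, on the pig transcript, went the other way. Its levels ran from -2.76 to -1.27 (median -2.30) in HF low RFI pigs, from -3.48 to -1.94 (median -2.61) in HF high RFI pigs, from -2.57 to -1.82 (median -1.94) in LF low RFI pigs and from -3.33 to -1.61 (median -1.97) in LF high RFI pigs. It fell by 0.32 under the HF diet (SE 0.12, adjusted p = 0.0626, limma), and 20 of 24 LF arrays exceeded the HF mean. The signal was low but well above background on 47 of 48 arrays. The call was lost under 7 of the 19 other settings that hold the probe, the 75th percentile and the authors' table among them, and the difference was -0.18 with normexp background correction. A second probe on the array has the same 60 bases and falls outside the member rule because its name is a record number. It gave a diet difference of -0.39 (SE 0.15, adjusted p = 0.0807, limma), just outside the cut-offs.

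The third probe, O221, was the dimmest. It was well above background on 11 of 12 HF low RFI, 7 of 12 HF high RFI, 10 of 12 LF low RFI and all 12 LF high RFI arrays. Its levels ran from -5.11 to -1.83 (median -3.19) under the HF diet and from -4.42 to -2.55 (median -3.62) under the LF diet. The difference of 0.21 (SE 0.18, 95% confidence interval -0.15 to 0.57, adjusted p = 0.504, limma) was within the spread between pigs.

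**Figure D2:**
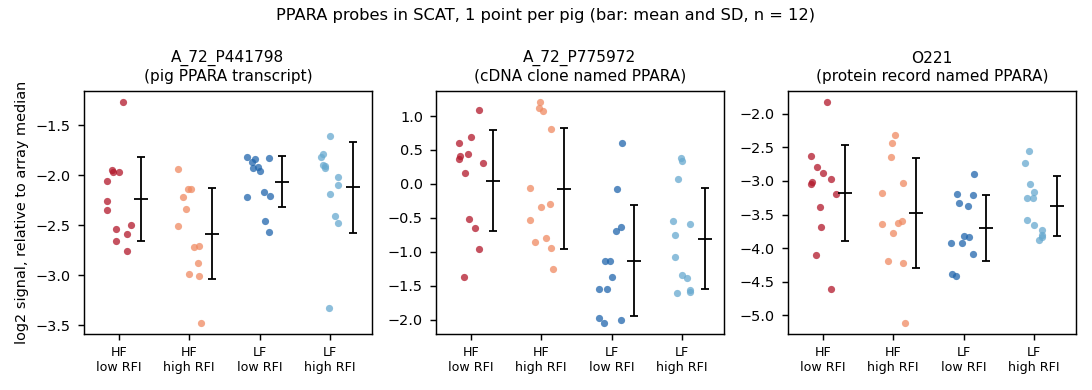
Levels of the 3 *PPARA* probes (log2 signal relative to the array median) in the 4 groups, 1 point per pig, with the mean and SD (n = 12). At A_72_P775972 the HF groups sit above the LF groups by 0.96 on average, at A_72_P441798 they sit below them by 0.32, and at O221 the groups overlap.

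Whether probes named for 1 gene responded differently to diet was tested by permuting the diets within lines. The permutation used the difference between both probes of a pair, a quantity that the centring of the arrays does not touch. This test was added after the probe values had been seen. Of 27 pairs, 5 differed at a Benjamini-Hochberg adjusted p under 0.05 (permutation test, two-sided, 100000 resamples), namely all 3 pairs of *PPARA* and 2 of *PPARD*. The diet effects at A_72_P441798 and A_72_P775972 differed by 1.27 (SE 0.26, permutation p = 1e-05, the smallest that these resamples can give, adjusted p = 0.000135). The size of this difference was 1.38 among the 24 arrays of the first scan date and 1.17 among the 24 of the second, coded as A_72_P441798 minus A_72_P775972 with values of -1.38 and -1.17. O221 differed from both of the others, by 0.53 (SE 0.17, adjusted p = 0.0230, permutation test) and 0.75 (SE 0.19, adjusted p = 0.00216, permutation test). These sizes were less even between the dates. A_72_P441798 minus O221 was -0.32 within the first scan date and -0.74 within the second, and A_72_P775972 minus O221 was 1.07 and 0.43.

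Within groups, 2 of the 3 *PPARA* pairs varied together. After subtracting group means, A_72_P441798 and A_72_P775972 showed no relation past the threshold over the 48 arrays, with r = 0.0069 (permutation p = 0.963, adjusted p = 0.963) and rho = 0.10 (permutation p = 0.486, adjusted p = 0.501), and r was 0.17 and -0.15 within the scan dates. A_72_P775972 and O221 gave r = 0.61 (permutation p = 2e-05, adjusted p = 4.25e-05) and rho = 0.65 (permutation p = 1e-05, adjusted p = 2.62e-05), with r = 0.57 without the 2 arrays farthest from the median and 0.76 and 0.47 within the scan dates. A_72_P441798 and O221 gave r = 0.46 (permutation p = 0.00109, adjusted p = 0.00176) and rho = 0.40 (permutation p = 0.00572, adjusted p = 0.0081), with r = 0.45 without the 2 farthest arrays and 0.58 and 0.35 within the scan dates. A_72_P441798 and the second probe of the same bases gave r = 0.68, and rho = 0.79 (permutation p = 1e-05 each). O221 thus varied with both probes, while no relation between those was detected. The p-values were adjusted over 34 pairs, 27 of members and 7 with a probe outside the rule that shares sequence.

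Of the 3 *PPARD* probes, 2 were down-regulated by the HF diet, the one from the human record by more than the one from the pig transcript. At O9480, levels ran from 2.26 to 4.0 (median 3.11) in HF low RFI pigs, from 1.84 to 3.83 (median 3.09) in HF high RFI pigs, from 3.12 to 4.07 (median 3.69) in LF low RFI pigs and from 2.96 to 4.68 (median 3.55) in LF high RFI pigs. LF low RFI pigs formed the narrowest group, with an SD of 0.25 against 0.51 to 0.55 in the others. The log2 level fell by 0.60 (SE 0.13, adjusted p = 0.00221, limma), and 22 of 24 LF arrays exceeded the HF mean.

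At A_72_P443751, the median level was -0.95 in HF low RFI, -1.01 in HF high RFI, -0.76 in LF low RFI and -0.61 in LF high RFI pigs, within a range from -1.28 to -0.15 over all groups. It fell by 0.24 (SE 0.070, adjusted p = 0.0204, limma), and 21 of 24 LF arrays exceeded the HF mean. The call of A_72_P443751 was lost with the 75th percentile (-0.20). A_72_P165296, designed on the same transcript, had medians of 0.90, 0.99, 1.08 and 0.90 in the same order of groups. Its difference was -0.0075 (SE 0.079, 95% confidence interval -0.17 to 0.15, adjusted p = 0.967, limma), and a second probe of the same 60 bases gave -0.086 (SE 0.079, adjusted p = 0.534). Within groups A_72_P165296 varied with *PPARG* O15024 (r = 0.84), and whether it reads *PPARD* alone was not tested.

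The diet effect at A_72_P165296 differed from that at O9480 by 0.59 (SE 0.12, permutation p = 1e-05, adjusted p = 0.000135) and from that at A_72_P443751 by 0.23 (SE 0.10, permutation p = 0.0296, adjusted p = 0.0998), the latter not past the threshold. O9480 and A_72_P443751 differed by 0.36 (SE 0.13, adjusted p = 0.0316, permutation test). A_72_P165296 minus O9480 was 0.80 within the first scan date and 0.38 within the second. A_72_P443751 minus O9480 was 0.44 and 0.28. Within groups, A_72_P165296 and A_72_P443751 showed no relation past the threshold, with r = 0.077 (permutation p = 0.602, adjusted p = 0.620) and rho = 0.02 (permutation p = 0.895, adjusted p = 0.895). Their r was 0.32 and 0.062 within the scan dates, and 0.27 with slide means subtracted too. O9480 was related to both, with r = 0.49 (adjusted p = 0.00068) and rho = 0.38 (adjusted p = 0.0114) for A_72_P165296 and r = 0.43 (adjusted p = 0.00397) and rho = 0.44 (adjusted p = 0.00374) for A_72_P443751, all by permutation. For these pairs r was 0.42 and 0.46 without the 2 farthest arrays, and within the scan dates it was 0.66 and 0.47 for the first pair and 0.54 on either date for the second.

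*RXRA*, which encodes the partner that all 3 PPARs use, was down-regulated by the HF diet at both probes. They were designed on a pig transcript model (A_72_P444634) and on a human *RXRA* record (O15026), and share no run of over 5 bases over their whole length. Their first 30 bases are given.
A_72_P444634: tgagatgtgctgccaccctgttaccttcca
O15026: tttcaccaaaggcggggtccttacgcacct

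At A_72_P444634, levels ran from 0.38 to 1.30 (median 0.96) under the HF diet and from 0.73 to 1.44 (median 1.14) under the LF diet. It fell by 0.21 under the HF diet (SE 0.055, adjusted p = 0.0084, limma), with 21 of 24 LF arrays above the HF mean. At O15026, levels ran from -2.10 to -0.99 (median -1.47) under the HF diet and from -2.13 to -0.48 (median -1.07) under the LF diet. It fell by 0.39 (SE 0.096, adjusted p = 0.00529, limma), with 22 of 24 LF arrays above the HF mean. In both, the diets overlapped at their extremes. The sizes at both probes differed by 0.18 (SE 0.079, permutation p = 0.028, adjusted p = 0.0998), which did not pass the threshold. The probes varied together within groups, with r = 0.58 (permutation p = 4e-05, adjusted p = 8e-05) and rho = 0.45 (permutation p = 0.00114, adjusted p = 0.00215), with r = 0.48 without the 2 farthest arrays and 0.44 and 0.64 within the scan dates.

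*RXRB* encodes a second RXR and was called at 1 of 3 probes. A_72_P537730 and A_72_P537734 read neighbouring stretches of the pig transcript and share 18 bases, given in capitals, whereas A_72_P205407 lies at a listed start of 2308, further along the same transcript.
A_72_P537730: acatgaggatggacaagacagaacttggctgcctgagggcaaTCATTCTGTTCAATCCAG
A_72_P537734: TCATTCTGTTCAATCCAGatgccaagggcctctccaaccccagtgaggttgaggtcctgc

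At A_72_P537734, levels ran from -2.16 to -1.43 (median -1.81) under the HF diet and from -2.18 to -1.25 (median -1.56) under the LF diet. It fell by 0.20 (SE 0.064, adjusted p = 0.039, limma), with 21 of 24 LF arrays above the HF mean, but the difference was -0.30 within the first scan date and -0.088 within the second, and with the 75th percentile (-0.16) or the authors' table (-0.14) the probe was not called. A_72_P537730 gave -0.10 (SE 0.099, adjusted p = 0.556) and A_72_P205407 gave -0.016 (SE 0.064, adjusted p = 0.908), neither called. No pair of *RXRB* probes differed in diet effect at an adjusted p under 0.05 (permutation test, lowest adjusted p = 0.0806, with a raw p of 0.0179). The reverse complement of A_72_P537730, also on the array, was well above background on 3 of 48 arrays, while A_72_P537730 itself was so on 45. A second probe with the same 60 bases as A_72_P537730 gave a diet difference of -0.14 (SE 0.10, adjusted p = 0.399). Within groups these probes of identical bases gave r = 0.17 (adjusted p = 0.274) and rho = 0.34 (adjusted p = 0.0250), by permutation. Identical bases thus did not ensure a high correlation between dim probes.

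**Figure D3:**
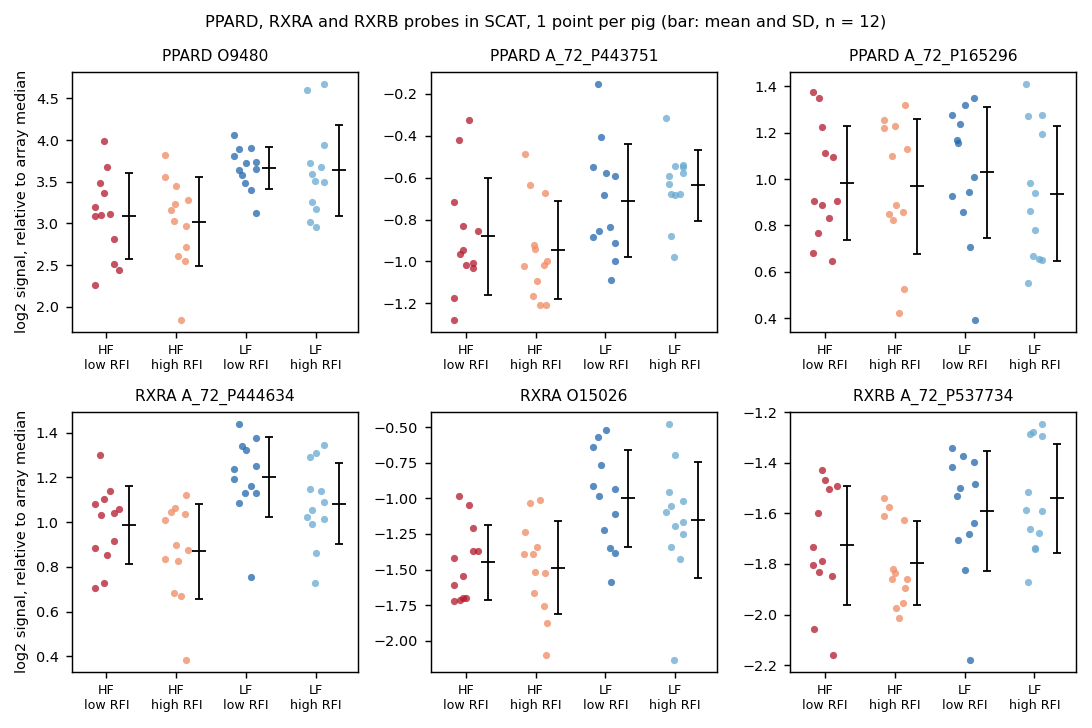
Levels of 3 *PPARD*, 2 *RXRA* and 1 *RXRB* probe (log2 signal relative to the array median) in the 4 groups, 1 point per pig, with the mean and SD (n = 12). Both LF groups sit above both HF groups in 5 panels, and the groups overlap at *PPARD* A_72_P165296, where the diet difference was -0.0075.

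*PPARG* did not differ between diets beyond the spread between pigs at any of its 4 probes. Of these, 3 overlap each other, and the run of 38 bases shared by all 3 is given in capitals for a pair of them. The pair itself shares a run of 53 bases. O15024 reads another stretch.
A_72_P441339: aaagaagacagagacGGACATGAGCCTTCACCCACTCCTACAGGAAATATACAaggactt
A_72_P636927: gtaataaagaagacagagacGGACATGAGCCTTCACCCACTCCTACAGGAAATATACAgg
O15024: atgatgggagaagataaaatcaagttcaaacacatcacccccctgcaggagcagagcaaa

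At A_72_P441339, the brightest probe of the gene, the median level was 6.17 in HF low RFI, 6.29 in HF high RFI, 6.39 in LF low RFI and 6.25 in LF high RFI pigs, and all 48 arrays lay between 5.83 and 6.65. The diet difference was -0.054 (SE 0.060, 95% confidence interval -0.17 to 0.07, adjusted p = 0.614, limma). A_72_P146711 and A_72_P636927, which share most of their bases with it, gave -0.041 and -0.051. O15024 gave 0.028 (SE 0.12, 95% confidence interval -0.22 to 0.28, adjusted p = 0.920, limma), with levels from 1.39 to 3.11. The intervals of the 3 overlapping probes thus leave room for a difference of at most 0.17 on the log2 scale, and that of O15024 for 0.28. The 3 overlapping probes followed each other closely within groups (r = 0.92 to 0.99), and each followed O15024 with r = 0.65 to 0.67 (permutation p = 1e-05 each).

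*RARA* was read by 2 probes that share 41 bases, given in capitals.
A_72_P117606: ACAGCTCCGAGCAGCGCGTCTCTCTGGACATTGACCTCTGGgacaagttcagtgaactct
O9489: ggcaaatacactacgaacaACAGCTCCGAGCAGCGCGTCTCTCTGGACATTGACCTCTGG

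Levels ran from -2.86 to -0.77 at A_72_P117606 and from -3.01 to -0.89 at O9489. The diet differences were -0.032 (SE 0.11, adjusted p = 0.891, limma) and -0.098 (SE 0.12, adjusted p = 0.640, limma). Although they share most of their bases, these probes varied together only in part (r = 0.33, adjusted p = 0.0333, and rho = 0.31, adjusted p = 0.0433, permutation tests), with r = 0.39 without the 2 farthest arrays and 0.20 and 0.35 within the scan dates. With slide means subtracted too, the relation was lost (r = 0.13, adjusted p = 0.404, permutation test).

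No coregulator probe was called by diet. *NCOR1*, the scaffold of the co-repressor complex, was read by 2 probes of the same 60 bases (A_72_P406963 and A_72_P711923), with levels from 1.66 to 2.15 and from 1.54 to 2.11. Their diet differences were -0.012 (SE 0.035, 95% confidence interval -0.08 to 0.06) and -0.014 (SE 0.034). These spots gave r = 0.84 within groups. The third probe, O11472, was dim, with levels from -2.88 to -1.35 and a difference of 0.035 (SE 0.078). A further probe carries 59 of its bases on the opposite strand and gave 0.017 (SE 0.11), so that which strand of *NCOR1* these dim probes read was not tested.

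*NCOA1* gave small positive differences at all 4 probes, 0.11 (SE 0.098) at A_72_P020616, 0.067 (SE 0.045) at A_72_P185336, 0.060 (SE 0.054) at A_72_P505750 and 0.038 (SE 0.045) at O544, with adjusted p from 0.363 to 0.645 (limma). Levels ran from 3.20 to 3.88 at A_72_P185336 and from 3.02 to 3.63 at O544, probes that followed each other with r = 0.87. A_72_P020616 showed no relation past the threshold to either (r = 0.16, adjusted p = 0.303, and r = 0.23, adjusted p = 0.153, permutation tests). With slide means subtracted too, r was 0.43 for both pairs. With A_72_P505750 it gave r = 0.50 (adjusted p = 0.000501, permutation test). *MED1* gave 0.035 (SE 0.048) at A_72_P004646 and -0.0014 (SE 0.047) at O4425, with adjusted p of 0.696 and 0.990 (limma). Levels ran from 1.31 to 2.02 and from 2.90 to 3.77. The 95% confidence intervals of the 2 *MED1* probes lay within -0.10 and 0.13.

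**Figure D4:**
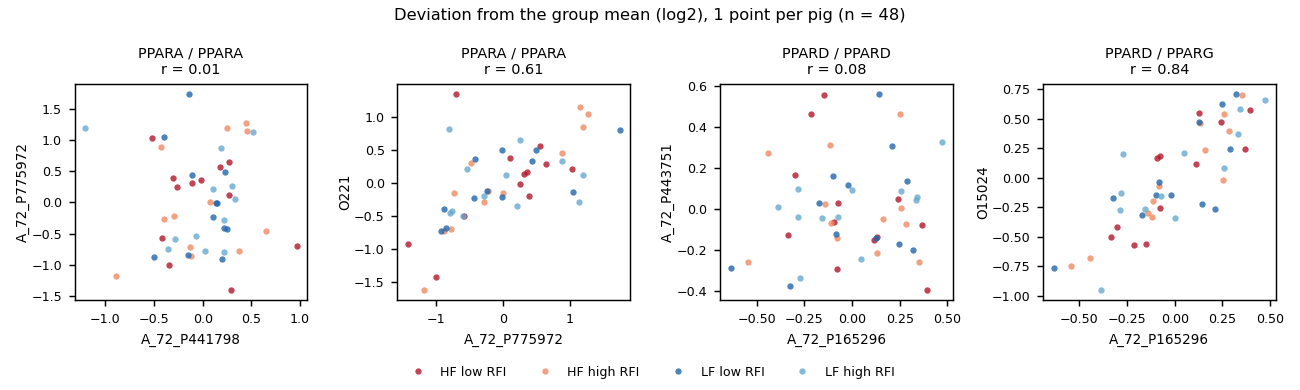
Deviation of each pig from its group mean (log2) at pairs of probes, with 1 point per pig (n = 48) coloured by group. The *PPARA* probes A_72_P441798 and A_72_P775972 show r = 0.01 and the *PPARD* probes A_72_P165296 and A_72_P443751 r = 0.08, whereas *PPARA* A_72_P775972 and O221 show r = 0.61 and *PPARD* A_72_P165296 and *PPARG* O15024 r = 0.84.

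The line did not change any of the 26 probes by an amount that passed the test, against 1.37% of all probes called by line. Differences between low and high RFI pigs ran from -0.18 at *RARA* A_72_P117606 to 0.20 at *PPARA* A_72_P441798 on the log2 scale, and 1 probe, *RXRA* A_72_P444634, had a raw p under 0.05 (0.12 higher in low RFI pigs, SE 0.055, adjusted p = 0.425, limma). No interaction of diet and line was called for a member or for any other probe (0% of 44356), and 1 member probe, *MED1* O4425, had a raw p under 0.05 for it (adjusted p = 1.0). The largest interaction estimate was 0.63 at *PPARA* O221 (SE 0.36, adjusted p = 1.0), the probe that was often close to background.

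Within low RFI pigs, 2 of the 26 probes were called by diet, against 3.04% of all probes. *PPARA* A_72_P775972 was 1.18 higher under the HF diet (SE 0.31, adjusted p = 0.0384, limma) and *RXRA* O15026 was lower by a difference of -0.45 (SE 0.14, adjusted p = 0.0704, limma). The call was lost under 4 of 20 other settings for the first and under 8 for the second, where the 75th percentile gave -0.41 and the authors' table -0.35. Within high RFI pigs, no member probe was called (1.66% of all probes), while 7 had a raw p under 0.05. There 2 were called with the slide or the scan date as a block, and 4 with the replicate number as a block or with array weights. The same 2 probes gave 0.73 and -0.34 there, and since no interaction was called, no difference between the lines was shown. Between lines, no member was called within the HF diet (0.0113% of all probes) or within the LF diet (0.0338%), with 1 and 0 probes at a raw p under 0.05.

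When both factors changed together, 5 member probes were called between HF high RFI and LF low RFI pigs, against 11.9% of all probes. They were *PPARA* A_72_P441798 (-0.52, SE 0.16, adjusted p = 0.0358) and A_72_P775972 (1.06, SE 0.31, adjusted p = 0.0268), *PPARD* O9480 (-0.65, SE 0.19, adjusted p = 0.0238), and *RXRA* A_72_P444634 (-0.33, SE 0.078, adjusted p = 0.00541) and O15026 (-0.49, SE 0.14, adjusted p = 0.0189), all by limma. Between HF low RFI and LF high RFI pigs no member was called (2.11% of all probes), with 5 at a raw p under 0.05. These comparisons share their arrays with the diet comparison.

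The group means of *PPARA* A_72_P441798, *PPARD* O9480 and both *RXRA* probes stood in the same order, LF low RFI highest, then LF high RFI, HF low RFI and HF high RFI. *RARA* O9489, which was not called, had this order too. *PPARD* A_72_P443751 and *RXRB* A_72_P537734, also called lower, had LF high RFI highest, then LF low RFI, HF low RFI and HF high RFI. At *PPARA* A_72_P775972 the order was HF low RFI, HF high RFI, LF high RFI and LF low RFI. No neighbours in these orders differed by the cut-offs, nor did any of the 78 neighbouring pairs over the 26 probes (lowest adjusted p = 0.141, at *PPARD* O9480 between LF high RFI and HF low RFI pigs), and 4 of the 78 had a raw p under 0.05.

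The 48 arrays lay on 6 slides, each with 2 arrays of every group, and were scanned on 2 dates, with 6 arrays per group on each. The 7 called probes kept their direction on both dates. The diet difference was 1.04 and 0.87 at *PPARA* A_72_P775972, -0.34 and -0.30 at A_72_P441798, -0.73 and -0.47 at *PPARD* O9480, -0.30 and -0.18 at A_72_P443751, -0.22 and -0.21 at *RXRA* A_72_P444634, and -0.39 and -0.40 at O15026, for the first and the second date. With 24 arrays each, 4 of the probes were called on the first date alone, where 2407 of all 44356 probes were called, and none on the second, where 1230 were. With the slide as a block all 7 were called.

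Among the genes around the receptors, each taken at its brightest kept probe, 10893 named genes were tested, and 12.6% were called by diet, 3.2% higher and 9.39% lower under HF, with a median of -0.039. Of 10 other corepressor complex genes none was called (median -0.0080), nor was any of 22 other co-activator genes (median -0.049) or of 7 other retinoid and partner receptors (median 0.073). The co-repressor and co-activator genes ranged from -0.17 to 0.14, and the other receptors from -0.12 to 0.45.

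Of 20 adipocyte targets of PPARG, 3 were called, all lower under the HF diet, and 17 were not (median -0.062). This share was near the 12.6% of all named genes called by diet (3.2% higher and 9.39% lower). *CIDEA*, which encodes a lipid droplet protein, was lower by a difference of -0.36 (SE 0.10, adjusted p = 0.0149), *MGLL*, the monoacylglycerol lipase, by -0.39 (SE 0.11, adjusted p = 0.0194), and *CEBPA*, a transcription factor of fat cell differentiation, by -0.14 (SE 0.050, adjusted p = 0.0581), all by limma. All 4 kept probes of *CEBPA* were called lower, but at the brightest the difference was -0.045 within the first scan date and -0.24 within the second, and the call was lost with the 75th percentile (-0.10).

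Of 26 fatty acid oxidation targets of PPARA and PPARD, 3 were called higher and 1 lower, and 22 were not called (median -0.013). The share called in either direction was near the 12.6% of all named genes (3.2% higher and 9.39% lower). *PDK4*, the kinase that limits pyruvate entry into the mitochondrion's oxidation, was higher by 0.63 (SE 0.23, adjusted p = 0.0687), with all 11 kept probes positive and 6 called, but its call was lost under 12 of 20 other settings, at values from 0.53 to 0.72. *CPT1B*, a carnitine palmitoyltransferase, was higher by 0.30 (SE 0.080, adjusted p = 0.0092), with 3 of its 6 probes called and the lowest at -0.059. *UCP3*, a mitochondrial carrier, was higher by 0.29 (SE 0.097, adjusted p = 0.0457), with 2 of 3 probes called and the third at -0.10, and its call was lost under 4 of 20 other settings, with 0.35 within the first scan date and 0.22 within the second. *CAT*, the peroxisomal catalase, was lower by a difference of -0.18 (SE 0.053, adjusted p = 0.0169), with 8 of 10 probes called lower. All these values are from limma.

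By line, 1.34% of all named genes were called and the median was 0.017. The list of 26 fatty acid oxidation targets of PPARA and PPARD also holds genes that encode no oxidation enzyme, such as *PLIN2*. Of the 26, 4 were called by line, all higher in low RFI pigs, and 24 had a positive difference (median 0.15). Among the 4, and named after their values had been seen, were *PLIN2*, a lipid droplet coat protein (0.79, SE 0.15, adjusted p = 0.00442), *ACAA1*, a peroxisomal thiolase (0.22, SE 0.064, adjusted p = 0.0778), and *CAT* (0.19, SE 0.053, adjusted p = 0.0587), all by limma. The call was lost under 11 of 20 other settings for *ACAA1*, 6 for *CAT* and 2 for *PLIN2*. Of the adipocyte targets of PPARG none was called by line and 1 was with the slide as a block, and 17 of 20 differences were positive (median 0.12). Of the macrophage markers 8 of 10 were negative by line (median -0.15), as were 9 of 10 preadipocyte and fibroblast markers (median -0.085), with none called, and their part in the line differences was not tested.

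Of 14 genes of retinoic acid handling and targets of RARA, 2 were called by diet, a share near the 12.6% of all named genes. *ALDH1A1*, a retinaldehyde dehydrogenase and 1 of these, was lower under the HF diet by a difference of -0.40 (SE 0.14, adjusted p = 0.0482, limma), with both kept probes called.

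**Figure D5:**
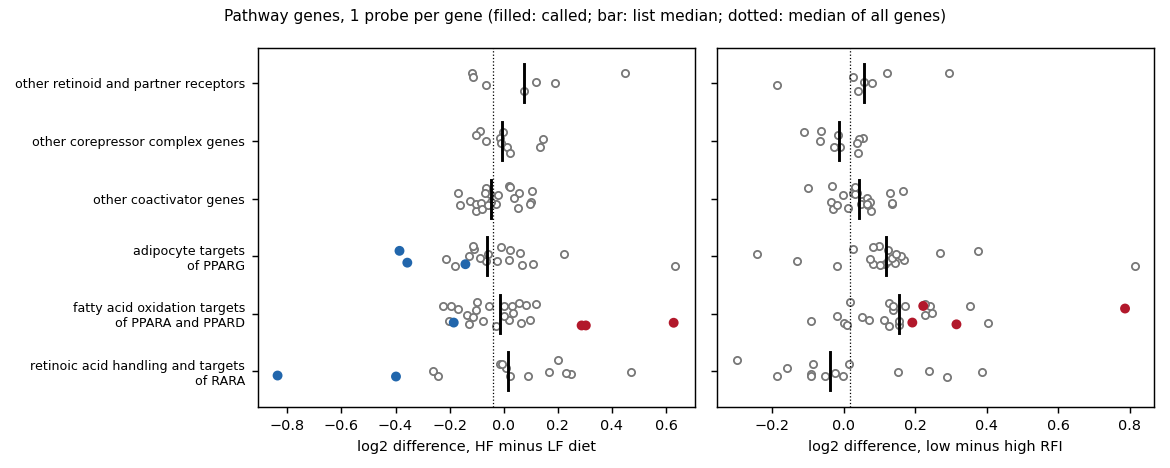
Differences by diet (left, HF minus LF) and by line (right, low minus high RFI) on the log2 scale for genes of 6 lists around the receptors, 1 point per gene. Filled points passed the cut-offs, thick bars are list medians and dotted lines the medians of all 10893 genes, -0.039 and 0.017. The fatty acid oxidation list holds 4 called genes on each side, and no co-repressor or co-activator gene is filled.

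Under the HF diet 9 of 10 preadipocyte and fibroblast markers were positive (median 0.18), with *PDGFRA* called (0.31, SE 0.11, adjusted p = 0.0661, limma), a call lost under 10 of 20 other settings. Of 10 adipocyte markers 1 was called, *LEP*, the gene of the hormone leptin, lower by a difference of -0.67 (SE 0.16, adjusted p = 0.00494, limma). All 10 skeletal muscle markers were negative, from -0.51 to -0.085, with none called and 1 called with the slide as a block. Their median of -0.21 was as large as the falls called for *RXRA* A_72_P444634 and *RXRB* A_72_P537734, and their part in these results was not tested beyond leaving out arrays. The mean muscle marker level ran from -0.75 to 1.59 in HF low RFI, from -0.89 to 0.07 in HF high RFI, from -0.63 to 1.56 in LF low RFI and from -0.82 to 2.06 in LF high RFI pigs, and 3 arrays stood above 1.5 with the next at 0.43. Without those 3 arrays, 6 of the 7 probes were still called, and *PPARA* A_72_P441798 kept its size (-0.33, SE 0.12, adjusted p = 0.0835) but not its call. Of the fatty acid oxidation targets called by diet, *CPT1B*, *UCP3* and *CAT* were still called without those 3 arrays and *PDK4* was not (0.62). Of the genes named for the line *PLIN2* was still called and the others were not, with *ACAA1* at 0.23 and *CAT* at 0.19. No macrophage, lymphocyte, endothelial or red blood cell marker was called by diet.

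The genes whose variation between pigs was most like that of *PPARA*, *PPARD*, *PPARG* and *RXRA* were sought at the brightest probe of each, over 48 arrays after subtracting group and slide means. For *PPARG* A_72_P441339, the closest symbol was *PPARD*, at A_72_P165296, with r = 0.87, and the next was *PANK3* (0.74). The other *PPARG* stretch, O15024, gave r = 0.92 with A_72_P165296. These probes share no run of over 10 bases, and the overlapping *PPARG* probes share at most 6 with A_72_P165296. They read other stretches of *PPARG*, and A_72_P165296 was not compared with the whole *PPARG* transcript. Whether it also reads *PPARG* was therefore not tested. For *PPARD* O9480 the closest were *ACLY* (0.85), *MSMO1* (0.77) and *NOLC1* (0.76). For *PPARA* A_72_P775972 they were *GTF2F2* (0.76), *CHD6* (0.69) and *ZMYND17* (0.68), and for *RXRA* A_72_P444634 *PSAP* (0.86), *GPR37L1* (0.77) and *GLS2* (0.75). These points share arrays and array centring, and the correlations are given as a description.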

How the data were processed

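RNA of 48 pigs was labelled with Cy3 and hybridized to custom 8-array slides. The scanner files that the authors deposited, quantified with Feature Extraction 10.7.3.1, hold linear spot intensity values with quality flags. They also deposited a table of log2 values, made in R 2.10.0 per the labels, which equals the log2 median brightness minus the array median (38987 probes, 25 of the 26 members) and served as an alternative.

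Here, controls were removed, outlier spots became missing (227, none of a member), and probes well above background on at least 9 of 12 arrays of a group were kept. The log2 of the processed signal was centred on each array's median. No spot was saturated. Diet, line and interaction were fitted with limma 3.58.1 in R 4.3.3 (lmFit, eBayes with intensity trend, two-sided) in place of the study's two-way analysis of variance, with its cut-offs. Groups came from the sample titles. Probe naming used the array files and reference tables of Sscrofa11.1. Of 60305 probes, 27222 received a symbol. The array lists no genome positions. In simulated data on 44356 probes with the diet comparison, 42% of changes of 0.25, 84% of 0.5 and 98% of 1 (log2) were called. Far fewer probes were changed there than the 13.1% called by diet in the data, which makes the adjusted p limit stricter. The simulated noise was also independent between probes, so these rates need not hold for the data. The precision rests on 12 arrays per group.

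All kept member probes are named, from each list up to 4 genes called by diet with the largest change, and the 3 symbols most like *PPARA*, *PPARD*, *PPARG* and *RXRA*, except a few genes that are not reported here. The members, lists and tests were chosen with earlier results of these data known. Alternatives covered scaling, background, filters, flags, slide, scan date, position, replicate number, signal level, array weights and the test.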

Additional observations from a re-analysis of the deposited data

How the results depend on the processing

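The 7 probes called by diet kept their direction under all 19 alternative settings that could be computed for them and without the 3 arrays of highest muscle marker level, an alternative chosen after seeing the data. *PPARA* A_72_P441798 has no value where all 48 arrays had to be above background. The number called by diet was 4 with the 75th percentile, with the array position as a block and within the first scan date, and 0 within the second scan date, where each date holds 24 arrays. Within low RFI pigs the count of 2 became 1 with the 75th percentile, with the median signal and with the authors' table, 4 with the slide block, the replicate block and array weights, and 0 with the position block, within either scan date and without the 3 arrays. Within high RFI pigs the count of 0 became 1 with the authors' table, the signal level as a covariate and without the 3 arrays, 2 with the slide block, the scan date block and within the first scan date, and 4 with the replicate block and array weights. HF high RFI against LF low RFI pigs gave 2 and 0 called probes within the first and second scan date in place of 5. HF low RFI against LF high RFI pigs gave 2 within the first scan date, 1 with the signal level and 3 with array weights in place of 0. Of the 27 probe pairs, 22 varied together at an adjusted p under 0.05 (permutation test) and 14 did so within the second scan date. The cause was not tested. Of the 578 values of called probes and list genes under other settings, 469 stayed called, 109 did not and 0 changed direction.

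The titles number the replicates alike in each group. Same-numbered arrays deviated together with a mean r of 0.013 to 0.37 over the numbers (lowest pair -0.19). Of 48 arrays, 21 correlated best with their own number, more than an even spread over the 12 numbers would give. Each number lies on 1 slide and 1 scan date, so that same-numbered arrays share a number and a slide. No pairing was used, and the main fit held no slide or replicate term. With the replicate block 7 member probes were called by diet, 0 by line and 0 by interaction.

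Signs that turned belonged to differences that were not called. They were 0.025 at *RXRB* A_72_P205407, 0.027 and 0.029 at *NCOR1* A_72_P711923 and A_72_P406963, 0.034 at *PPARD* A_72_P165296, 0.0086 at *RARA* A_72_P117606 and 0.040 at *MED1* O4425 with the 75th percentile. With quantile normalization they were 0.010 and 0.0026 at *PPARG* A_72_P146711 and A_72_P636927, 0.0026 at A_72_P205407, 0.016 and 0.018 at A_72_P711923 and A_72_P406963, 0.0067 at A_72_P165296 and 0.050 at O4425. O4425 gave 0.042 with normexp, 0.031 with the median signal, 0.034 with the authors' table, 0.0077 with all 48 arrays above background, 0.080 within the first scan date and 0.040 with the signal level. A_72_P165296 gave 0.0016 with all 48 arrays above background, 0.067 within the first scan date, 0.0035 with array weights and 0.012 without the 3 arrays. A_72_P205407 gave 0.00023 with background flags left out and 0.023 within the second scan date. A_72_P117606 gave 0.014 with the position block, 0.058 within the first scan date and 0.066 with the signal level, and A_72_P711923 gave 0.010 with the position block. *RARA* O9489 gave 0.0098 and *PPARA* O221 gave -0.026 within the first scan date. *PPARG* O15024 gave -0.010 within the second scan date and -0.13 with the signal level, where *NCOA1* A_72_P505750 gave -0.0032.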
